A study of Mus musculus with 6 samples.

Results

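Transcripts of 10 genes tied to hypoxia-inducible factor (HIF) outside glycolysis were examined in 4T1, a line of mouse mammary carcinoma cells. The genes were Bnip3, Bnip3l, Pdk1, Adm, Car9, Vegfa, Ndrg1, P4ha1, Ero1l and Hif1a, and all 10 were found by symbol among the 11452 genes measured. They were chosen by their known tie to HIF and by their measured log2 CPM in these libraries, namely the difference of knockout from wild type within each library number and the levels in number 4. Those values are therefore a description and not a test. The cells were pools that were knockout (KO) or wild type (WT) for Myo1e, which encodes myosin 1e, a membrane-binding actin motor, with 3 libraries of each. No treatment, oxygen level or culture condition is given in the sources used here for either genotype, nor how the knockout or the pools were made. The libraries carry the numbers 1, 2 and 4 in each genotype and are named here by genotype and number, as KO 4.

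HIF is a transcription factor made of an oxygen-labile alpha subunit and a stable beta subunit. When oxygen is plentiful, prolyl hydroxylases mark the alpha subunit for destruction through the VHL protein, and when oxygen is scarce it accumulates and binds short elements with the core letters ACGTG or GCGTG. The alpha subunit is set mainly through the stability of its protein, so its transcript need not follow its activity. Its targets turn metabolism away from mitochondria, raise pH regulation and matrix production, and call in blood vessels, and in solid tumours they are much used as readouts of hypoxia.

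The libraries held 17772003 to 19988206 reads each, recovered from the deposited values as described under the processing. Levels are in log2 CPM, read counts scaled to library size on a log2 scale, as the authors deposited them. The targeted gene Myo1e was at 6.87, 6.81 and 6.81 log2 CPM in KO 1, KO 2 and KO 4 and at 7.09, 7.02 and 6.91 in the WT libraries of the same numbers. It had a KO mean of 6.83 ± 0.03 log2 CPM and a WT mean of 7.01 ± 0.09 (SD, 3 libraries each). Its transcript was thus present in all 3 KO libraries, and the level of a whole gene does not show an edited site. KO 4 and WT 4 stood apart from the other 4 libraries at most genes. Mitochondrially encoded genes held 0.343% to 0.493% of reads in KO and 0.309% to 0.435% in WT, and in each number the share was higher in KO. Their part in the results below was not tested. The 8 epithelial markers looked for were all measured. Of the other cell types, Pdgfra and Postn of 8 fibroblast markers and Cd68 of 8 leukocyte markers were measured, and 0 of 6 endothelial and 0 of 4 erythroid markers. Summed over the measured markers, fibroblast genes were at 29.9 to 71.0 CPM in KO and 51.5 to 76.8 CPM in WT, with median differences of -0.66, -0.71 and 0.33 between KO and WT in numbers 1, 2 and 4, and the leukocyte gene at 4.51 to 7.88 and 3.98 to 6.99 CPM. Their part in the results was not tested either.

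Promoter sequences are shown because HIF binds near the starts of many of these genes. Those printed are of Bnip3, Pdk1, Adm, P4ha1 and Car9, which were at lower levels in KO in every pair. These printed genes moved in different directions between library numbers. Vegfa and Bnip3l were also lower in KO in every pair and are not printed. The run of 180 bases before start 1 of Vegfa held 0 matches of ACGTG and 0 of GCGTG. The printed runs thus do not stand for every gene with this pattern. RefSeq promoter windows (GRCm38.p6, 250 bases before to 50 after the start) matched 8 of the 10 genes with 10 starts, Ero1l under its current name Ero1a. Bnip3l and Ndrg1 were not matched. The printed runs lie before the RefSeq start and before any GENCODE exon of the gene, except the 30 bases of Car9. Capitals mark the letters ACGTG or GCGTG, read on either strand as CACGT or CACGC.
Bnip3, chr7:138909520-138909699, minus strand: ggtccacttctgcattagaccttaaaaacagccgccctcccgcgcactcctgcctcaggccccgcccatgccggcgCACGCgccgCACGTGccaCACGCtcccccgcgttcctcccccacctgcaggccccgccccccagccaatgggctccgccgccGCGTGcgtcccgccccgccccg
Pdk1, chr2:71873044-71873223, plus strand: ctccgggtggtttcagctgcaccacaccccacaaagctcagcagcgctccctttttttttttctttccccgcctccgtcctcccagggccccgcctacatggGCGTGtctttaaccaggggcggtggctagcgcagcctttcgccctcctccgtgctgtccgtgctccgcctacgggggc
Adm, chr7:110627477-110627656, plus strand: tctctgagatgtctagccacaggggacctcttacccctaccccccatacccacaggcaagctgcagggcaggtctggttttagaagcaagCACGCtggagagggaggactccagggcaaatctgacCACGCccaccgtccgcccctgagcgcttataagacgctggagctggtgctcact
P4ha1, chr10:59323116-59323295, plus strand: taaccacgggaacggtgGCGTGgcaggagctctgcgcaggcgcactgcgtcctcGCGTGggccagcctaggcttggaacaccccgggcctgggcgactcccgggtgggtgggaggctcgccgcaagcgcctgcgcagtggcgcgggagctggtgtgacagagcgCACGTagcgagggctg
Car9, chr4:43506996-43507025, plus strand: ctatttccgatgCACGTacagcccgtccac

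The letters ACGTG were found on either strand within 6 of the 10 windows and in at least 1 window of 6 of the 8 matched genes, Bnip3, Car9, Vegfa, P4ha1, Ero1l and Hif1a. In the printed runs, Bnip3 shows them as CACGTG, which reads the same on both strands and counts as overlapping matches. Those of Car9 begin at position -18 and those of P4ha1 nearest the start at -16, counted from the RefSeq start. Adm and the printed start of Pdk1 had no ACGTG in their windows and 2 matches each of GCGTG, of which 1 for Pdk1 reaches past the printed run. With either motif, 8 of 8 matched genes had a match in at least 1 window, but start 1 of Vegfa and start 2 of Pdk1 had none. This count is by gene, whereas the shares that follow are by window. Of 32851 windows of the same length, 19.6% held ACGTG, 32.4% GCGTG and 43.8% either of them, and among the 11494 windows of genes tested here the shares were 26.0%, 51.9% and 63.3%. The matches describe letters and not binding.

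The genes spanned a wide range of levels, compared here as CPM per kilobase of the gene's exons. In WT, Hif1a was highest at 38.6 ± 3.1 CPM per kb, followed by Ndrg1 at 37.3 ± 31.5, P4ha1 at 25.3 ± 8.2, Ero1l at 24.8 ± 7.2 and Bnip3l at 23.2 ± 2.3 (SD, n = 3). Vegfa was at 14.2 ± 7.7 and Bnip3 at 12.9 ± 3.8, and Car9, Pdk1 and Adm were lowest at 8.71 ± 3.68, 4.28 ± 1.24 and 1.42 ± 0.26. In WT the ranges of neighbours in this order overlapped, except between Car9 and Pdk1 and between Pdk1 and Adm. The order in KO was the same but for P4ha1 (20.5 ± 5.2) and Ero1l (21.9 ± 5.7), which changed places. The place of some genes in the order differed with the library number. Ndrg1 was the 4th and 5th highest of the 10 genes in WT 1 and WT 2 and the 1st in WT 4, and the 5th, 3rd and 1st in KO 1, KO 2 and KO 4. P4ha1 was 2nd in each of the libraries numbered 1 and 2 and 6th in both numbered 4.

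**Figure D1:**
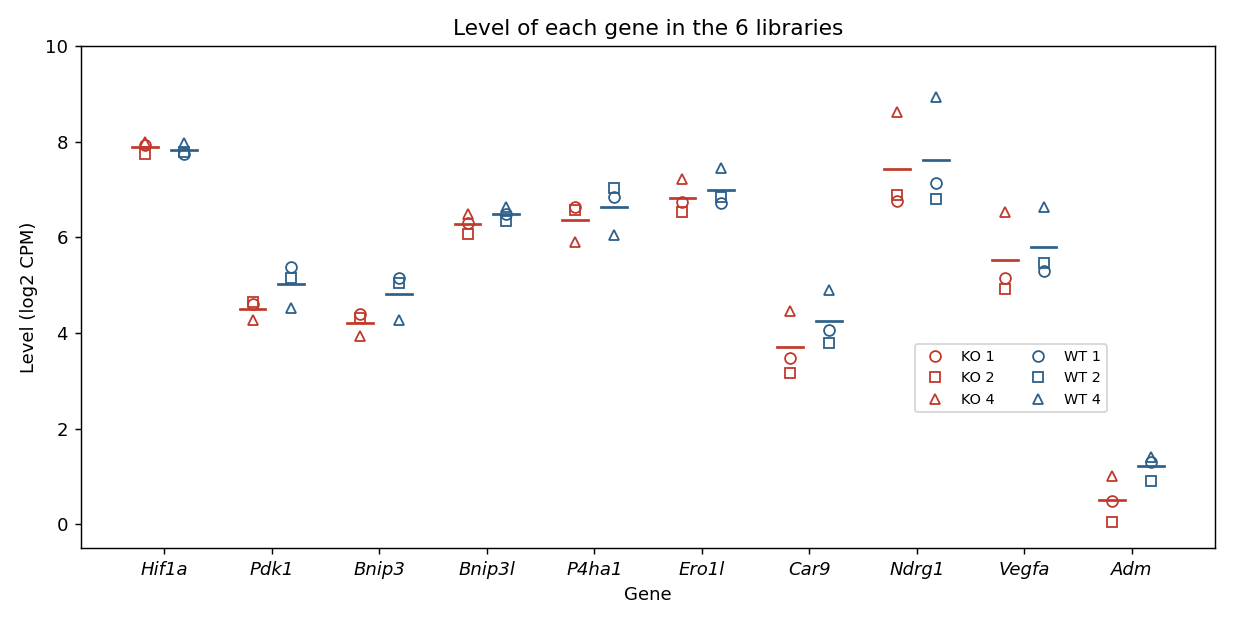
Level of each gene (y axis, log2 CPM) in the 3 KO libraries (red) and the 3 WT libraries (blue), with circles, squares and triangles for the libraries numbered 1, 2 and 4 and a bar for the genotype mean. The triangles lie above the other symbols for Car9, Vegfa, Ndrg1 and Ero1l and below them for Bnip3, Pdk1 and P4ha1, in both genotypes.

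The first comparison was the libraries labelled KO against those labelled WT. On average 9 of the 10 genes were lower in KO, 4 of them (Adm, Bnip3, Car9 and Pdk1) by 0.5 or more on the log2 scale. In 3 of 3 pairs of the same number 7 were lower, Bnip3, Bnip3l, Pdk1, Adm, Car9, Vegfa and P4ha1, and 0 were higher. Over all 11269 genes tested, 52.9% were lower on average, 1.04% by 0.5 or more, 17% were lower in 3 of 3 pairs and 15.6% higher in 3 of 3. The median difference of the 10 genes was -0.27 on the log2 scale, or -0.30, -0.48 and -0.24 within the numbers 1, 2 and 4 taken singly, and that of all genes was -0.01. In limma's fit of KO against WT, 0 of the 10 genes and 0% of all genes were lower past an adjusted p of 0.05, and 23 of all genes, 0 of them among the 10, had an unadjusted p under 0.05. With the library number as a replicate block, 0 of the 10 genes and 0.00887% of all genes passed, and 9 of the 10 were lower at an unadjusted p under 0.05, against 5.08% of all genes. In either direction, 1117 of all genes had an unadjusted p under 0.05 in limma's fit with the block. The fit without the block leaves the spread between numbers in its error, so its count of 0 is limited by that. Its median SE over all genes was 0.197, against 0.073 with the block. Limma voom on the recovered reads gave 0 genes without the block and 1 with it, none of them among the 10. Since this comparison chose the genes, these counts are given for their size and nothing is read from them.

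Hif1a (chr12:73901375-73947530, plus strand, in GRCm38 by GENCODE M21, as for all genes below) encodes the alpha subunit itself. It was at 7.93, 7.74 and 7.99 log2 CPM in KO 1, KO 2 and KO 4, and at 7.75, 7.78 and 7.96 in WT 1, WT 2 and WT 4. The genotypes overlapped, and the mean difference of 0.06 was the one above 0 among the 10 genes, with pair differences of 0.18, -0.04 and 0.03.

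Pdk1 (chr2:71873224-71903858, plus strand) encodes a kinase that shuts pyruvate out of the citric acid cycle by inhibiting pyruvate dehydrogenase. It was at 4.60, 4.65 and 4.27 log2 CPM in the KO libraries numbered 1, 2 and 4 and at 5.38, 5.14 and 4.51 in the WT ones. The KO library was below the WT library of its number each time, with differences of -42.0%, -29.1% and -15.8%. The genotypes overlapped, because WT 4 lay below KO 1 and KO 2.

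Bnip3 (chr7:138890836-138909519, minus strand) and Bnip3l (chr14:66985239-67008877, minus strand) encode related receptors of the outer mitochondrial membrane that hand mitochondria to autophagy. Bnip3 was at 4.40, 4.30 and 3.95 log2 CPM in KO 1, KO 2 and KO 4 and at 5.15, 5.05 and 4.27 in WT 1, WT 2 and WT 4. KO differed from WT within each number by -40.6%, -40.3% and -20.3%, and WT 4 again lay below KO 1 and KO 2. Bnip3l was at 6.29, 6.06 and 6.48 log2 CPM in KO and 6.48, 6.34 and 6.62 in WT, a smaller difference of -12.4%, -17.6% and -9.53% in the same order of numbers. Its WT 2 library lay below KO 4, so the genotypes overlapped for both receptors.

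P4ha1 (chr10:59323296-59373304, plus strand) encodes a catalytic subunit of collagen prolyl hydroxylase, and Ero1l (chr14:45283087-45318771, minus strand) an oxidase that feeds disulfide formation in the endoplasmic reticulum. P4ha1 was at 6.62, 6.57 and 5.91 log2 CPM in KO and at 6.85, 7.03 and 6.04 in WT, with differences of -14.3%, -27.6% and -8.92% within the numbers 1, 2 and 4. Ero1l was at 6.74, 6.52 and 7.23 in KO and at 6.71, 6.83 and 7.45 in WT. Its pairs did not share a sign, since KO differed from WT by 1.63% in number 1 and by -19.4% and -14.4% in numbers 2 and 4.

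Car9 (chr4:43506966-43513729, plus strand) encodes a carbonic anhydrase at the cell surface that helps tumour cells to export acid. It was at 3.48, 3.16 and 4.46 log2 CPM in KO and at 4.07, 3.79 and 4.89 in WT. The pair differences of Car9, -0.59, -0.63 and -0.43, had an SD of 0.10, smaller than those of Bnip3 (0.24), Pdk1 (0.27) and Adm (0.26). Ndrg1 (chr15:66929318-66969640, minus strand), a stress-induced cytoplasmic protein linked to growth arrest and differentiation, was at 6.76, 6.89 and 8.62 in KO and at 7.13, 6.81 and 8.92 in WT, and KO was above WT in number 2.

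Vegfa (chr17:46016993-46032369, minus strand) and Adm (chr7:110627661-110629820, plus strand) encode secreted factors, the main growth factor of blood vessels and the vasodilator peptide adrenomedullin. Vegfa was at 5.16, 4.92 and 6.53 log2 CPM in KO and at 5.30, 5.46 and 6.63 in WT, and KO differed by -9.46%, -31.6% and -6.73%. Adm was at 0.48, 0.05 and 1.01 in KO and at 1.31, 0.91 and 1.42 in WT. KO 4 was above WT 2 for Adm, so none of the 10 genes had all 3 KO libraries below all 3 WT libraries, an arrangement seen in 1.59% of all genes. The difference of Adm was -0.70 on average and rested on few reads, 26, 17 and 41 in KO against 47, 34 and 49 in WT. It was -0.45 with a pseudocount of 1 added to CPM, below the -0.58 of Bnip3, the -0.52 of Car9 and the -0.49 of Pdk1 in size.

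**Figure D2:**
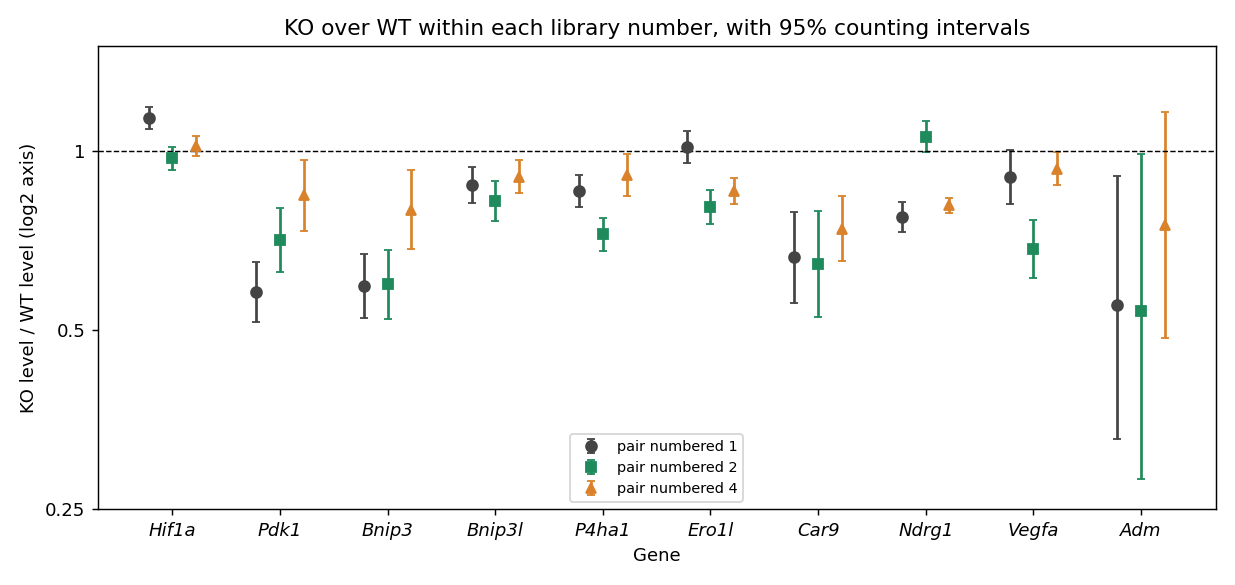
KO level divided by WT level within each library number (y axis, log2 scale, dashed line at equal levels), with bars for the 95% interval from counting error alone. The pairs numbered 4 (orange triangles) lie nearer to equal levels than both other pairs for 8 of the 10 genes, among them Bnip3, Pdk1 and Adm.

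The pair numbered 4 showed a difference smaller in size than both other pairs for 8 of the 10 genes, all but Ndrg1 and Ero1l, and this held for 32.2% of all genes tested. For Bnip3 and Pdk1 both genotypes were lower in number 4, and WT by more than KO, so the gap narrowed. Bnip3 in WT 4 differed from the mean of WT 1 and WT 2 by -0.83, and in KO 4 from the mean of KO 1 and KO 2 by -0.41. For Pdk1 these differences were -0.75 in WT and -0.36 in KO. In Adm the direction was the other one, with KO 4 above KO 1 and KO 2 by 0.75 on average and WT 4 above its counterparts by 0.30. Both arrangements leave KO 4 nearer to WT 4, one from lower levels and one from higher levels.

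Counting intervals of the pair ratios leave out the spread between libraries, which was larger than counting error (chi-square per degree of freedom of 4.89 between KO 1 and KO 2, and more between WT 1 and WT 2). The counting intervals describe depth and do not test whether the pairs differ. For Bnip3 the KO to WT ratio was 0.796 in number 4 (95% exact interval 0.683 to 0.928), against 0.593 (0.523 to 0.671) and 0.597 (0.521 to 0.682) in numbers 1 and 2. For Pdk1 the ratio was 0.841 (0.732 to 0.967) in number 4, 0.579 (0.516 to 0.650) in number 1 and 0.709 (0.627 to 0.802) in number 2. For Adm all 3 intervals overlapped, at 0.752 (0.484 to 1.16) in number 4 and 0.551 (0.327 to 0.908) and 0.537 (0.281 to 0.988) in numbers 1 and 2. Those of Pdk1 in numbers 4 and 2 overlapped as well, and those of Bnip3 in these numbers nearly met, at 0.683 and 0.682. Whether the difference of Adm was smaller in number 4 cannot be read from its wide intervals. In limma's fit of the interaction between genotype and number 4, 0 of the 10 genes and 0% of all genes passed an adjusted p of 0.05. Bnip3 alone of the 10 had an unadjusted p under 0.05, against 3.9% of all genes. The interaction was 0.42 (SE 0.17) for Bnip3, 0.39 (SE 0.18) for Pdk1 and 0.45 (SE 0.53) for Adm, and these 3 genes were named for this pattern. Without WT 1 the interaction was 0.37 for Bnip3, 0.27 for Pdk1 and 0.25 for Adm, and without WT 2 it was 0.47, 0.51 and 0.65. The spread in these fits rests on KO 1 and KO 2 alone, so no calls are given for them.

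The second comparison was the libraries numbered 4 against those numbered 1 and 2, with genotype in the model. In limma's test 9 of the 10 genes passed an adjusted p of 0.05, 6 higher and 3 lower in number 4, against 65.6% of all genes, 31.8% higher and 33.8% lower. The model takes KO 4 and WT 4 as separate replicates of number 4. Where the numbers pair the libraries, number 4 is 1 set against 2, and the p-values are then too small. Passing was common among all genes, and the share among the 10 is given with that background. The levels in number 4 also served to choose the 10 genes. Their calls and p-values here and below are therefore a description and not a test. The p-values measure the spread between these libraries, and the sources used here do not give what number 4 stands for. Fewer cells of a kind and less RNA per cell cannot be told apart in such bulk libraries.

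Ndrg1, Vegfa and Car9 rose most in number 4. Ndrg1 was 3.66-fold higher, a log2 difference of 1.87 (SE 0.09, limma adjusted p = 4.24e-07). Vegfa was 2.59-fold higher (1.37, SE 0.09, limma adjusted p = 2.51e-06) and Car9 2.08-fold higher (1.05, SE 0.12, limma adjusted p = 7.19e-05). These 3 genes differed by 1 log2 unit or more, as 11.5% of all genes did. Ero1l rose by 0.64 (SE 0.07, limma adjusted p = 5.02e-05), and both libraries numbered 4 were above the other 4 libraries for these 4 genes and for Hif1a, as in 35.8% of all genes. Bnip3l (0.26, SE 0.08, limma adjusted p = 0.0145) and Hif1a (0.18, SE 0.06, limma adjusted p = 0.0336) rose less. Leaving out KO 4 or WT 4 ended the calls of both, with limma adjusted p of 0.152 and 0.0528 for Bnip3l and of 0.114 and 0.200 for Hif1a, as did an untrended variance (0.0510 and 0.0907). The call of Hif1a also ended without KO 2 (0.0903) and with median centring (0.0527). Adm was 0.53 higher (SE 0.26) and did not pass (limma adjusted p = 0.101).

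P4ha1, Bnip3 and Pdk1 fell in number 4. P4ha1 was at 0.577 times its level in numbers 1 and 2 (-0.79, SE 0.07, limma adjusted p = 1.59e-05), Bnip3 at 0.653 times (-0.62, SE 0.11, limma adjusted p = 0.00074) and Pdk1 at 0.682 times (-0.55, SE 0.11, limma adjusted p = 0.0016). Both libraries numbered 4 were below the other 4 for these 3 genes, as in 37% of all genes. The related receptors Bnip3 and Bnip3l moved in opposite directions there, whereas both were lower in KO in each pair.

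**Figure D3:**
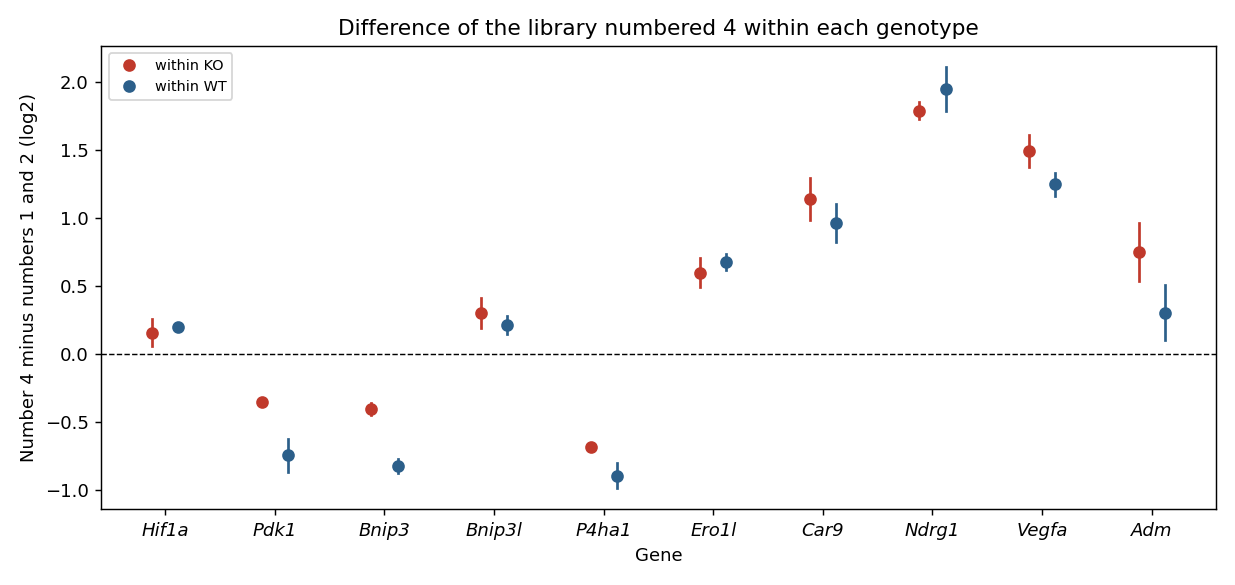
Level in the library numbered 4 minus the mean of those numbered 1 and 2 (y axis, log2 difference), within KO (red) and within WT (blue), with lines from the difference to number 1 to the difference to number 2. Ndrg1 was 1.79 higher within KO and 1.95 higher within WT, and Bnip3 differed by -0.41 and -0.83.

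Within single genotypes the directions were the same for each of the 10 genes. Ndrg1 was higher in KO 4 by 1.79 and in WT 4 by 1.95, Vegfa by 1.49 and 1.25, and Car9 by 1.14 and 0.97. P4ha1 differed by -0.69 in KO 4 and -0.90 in WT 4. The difference between libraries 1 and 2 was smaller than these for Bnip3 and Ndrg1. Bnip3 in library 1 was 0.09 above library 2 in KO and 0.10 above it in WT, and Ndrg1 differed by -0.13 and 0.32. For Adm this difference between libraries 1 and 2, 0.43 in KO and 0.40 in WT, was larger than the 0.30 by which WT 4 exceeded the mean of WT 1 and WT 2. For Hif1a in KO it was 0.20, larger than the 0.15 by which KO 4 exceeded the mean of KO 1 and KO 2.

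By the distance between centred log2 levels over the 6 libraries, the gene most like Bnip3 among all tested was Pdk1, and the gene most like Pdk1 was Bnip3, at a root mean square distance of 0.08. The next were Slc52a3, a riboflavin transporter gene (0.12 from each), P2ry6 (0.19 from Bnip3) and Marcksl1 (0.14 from Pdk1). Slc52a3 differed by -0.50 between KO and WT and by -0.61 between number 4 and the others. P4ha1 was the 13th nearest gene to Bnip3. The rest of the genes examined here were far from Bnip3, from Bnip3l at place 5674 to Ndrg1 at place 11101. Nearest to Adm were Ly6e (0.14), Psme2b (0.15) and Ccdc90b (0.15), and Car9 was the 66th nearest. From Adm the rest of the genes examined here ran from Bnip3l at place 144 to Ndrg1 at place 9826. The 6 libraries share genotype and number, so many genes are near each other on this measure. The genes examined here were also chosen by their levels in these same libraries. The nearness of Pdk1 and P4ha1 to Bnip3, and of Car9 to Adm, is therefore a description and not a test.

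The regulators of HIF had a median difference between KO and WT near that of all genes. Of 12 other regulators listed 9 were measured, with a median of -0.01, and 0 passed in limma's test with or without the block. Vhl, the subunit that marks the alpha subunit for destruction, differed by -0.15, and the oxygen-sensing prolyl hydroxylase genes Egln1, Egln2 and Egln3 by -0.01, -0.02 and -0.15. The coactivator genes Crebbp and Ep300 were 0.31 and 0.18 higher in KO, each in 3 of 3 pairs. In number 4, Vhl (0.52), the beta subunit gene Arnt (0.42) and Egln2 (0.26) rose, and Cited2 (-0.51) and Egln3 (-0.34), themselves HIF targets, fell past limma's threshold.

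Other HIF targets outside glycolysis were followed in the same way, and since the 10 genes were chosen by their difference between genotypes, the medians of the lists are not compared. Of 45 listed, 35 were tested. Of these, 25 were lower in KO on average, against 52.9% of all genes, and 11 in 3 of 3 pairs, against 17%. The median of the 35 was -0.07. The lowest were Vldlr, a lipoprotein receptor gene (-0.75, with pairs of -0.36, -1.80 and -0.07), Ddit4, an inhibitor of mTORC1 (-0.53, with pairs of -0.41, -1.17 and -0.03), and the vasoconstrictor gene Edn1 (-0.34, with pairs of -0.94, -0.58 and 0.51). Among the highest were Mt1 (0.39) and Errfi1 (0.29), and 0 of the 35 passed in limma's test. In number 4, 14 rose and 16 fell past the threshold, where 31.8% of all genes rose and 33.8% fell, among them Tfrc (-2.42) and Ankrd37 (-1.77) at the low end and Ddit4 (2.50), Stc2 (2.86) and Vldlr (3.18) at the high end.

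Glycolytic HIF targets were the other list. Of 20 listed, 19 were tested. Of these, 16 were lower in KO on average, against 52.9% of all genes, and 11 in 3 of 3 pairs, against 17%. The median of the 19 was -0.15, or -0.13, -0.12 and -0.16 within the numbers 1, 2 and 4. The lowest were Aldoa (-0.26), Tpi1 (-0.24) and Ldha (-0.24), and the highest Pfkfb3 (0.20), Hk2 (0.05) and Hk1 (0.01). The pair numbered 4 had the smallest difference in size for 2 of these 19 genes, against 32.2% of all genes. In number 4, 12 fell and 2 rose past limma's threshold, against 33.8% and 31.8% of all genes, with Tpi1 (-1.34), Ldha (-1.21) and Pfkl (-1.18) lowest and Aldoc (0.77), Eno2 (0.53, not past the threshold) and Hk2 (0.53) highest. Differences between these lists were not tested.

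**Figure D4:**
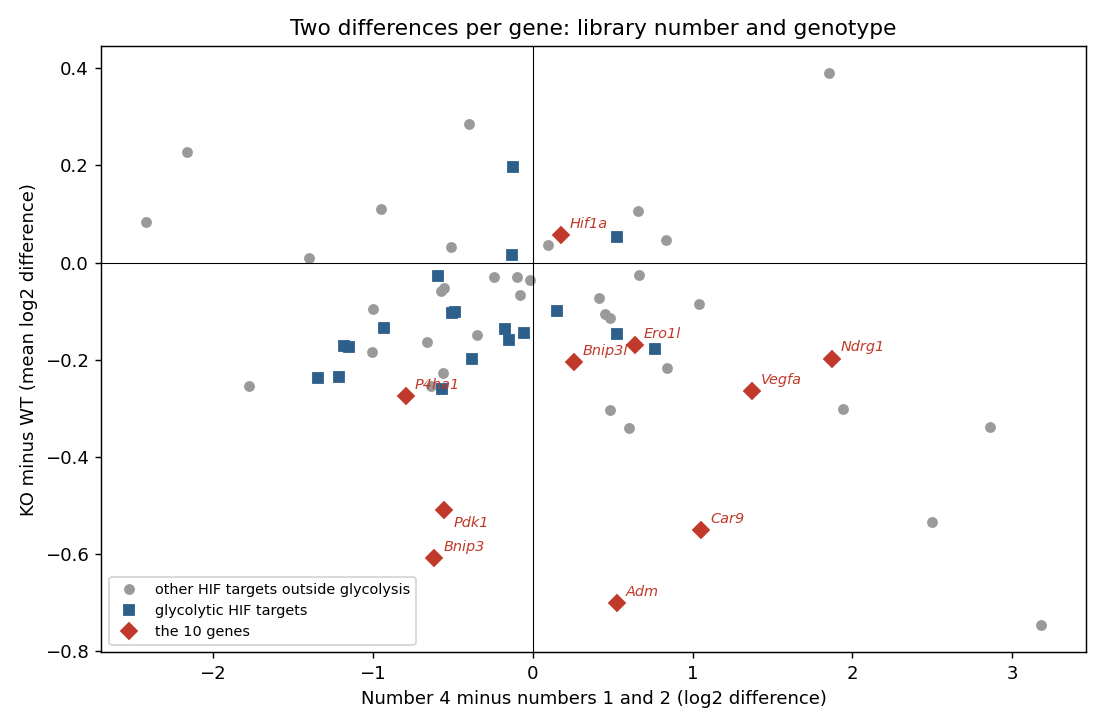
Difference of number 4 from numbers 1 and 2 (x axis, log2) against the mean difference of KO from WT (y axis, log2) for the 10 genes (red diamonds, named), other HIF targets outside glycolysis (grey circles) and glycolytic HIF targets (blue squares). The red points lie below 0 on the y axis except Hif1a and on both sides of 0 on the x axis, from P4ha1 at -0.79 to Ndrg1 at 1.87.

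Partner genes of the 10 were followed as well. Pdk2, another kinase isoform, rose by 2.52 in number 4 while Pdk3 (-0.37) fell with Pdk1, and the phosphatase gene Pdp2, which acts against these kinases, fell by 1.32. The genes of pyruvate dehydrogenase and its regulators had a median difference between KO and WT of -0.0002 over 10 tested genes. Among mitophagy and LC3 family genes 8 of 13 rose and 2 fell in number 4, where 31.8% of all genes rose and 33.8% fell, led by the autophagy receptor gene Sqstm1 (2.30), and the median between KO and WT was -0.08.

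In the family of secreted factors, Vegfb (-0.26), Pgf (-1.05) and the coreceptor gene Nrp1 (-1.36) fell in number 4, where Vegfa and the other coreceptor gene, Nrp2 (0.53), rose. Of 5 genes listed around the adrenomedullin receptor 1 was measured, Ramp1, and its values do not stand for that receptor. Ramp1 had a KO mean of -0.77 ± 2.32 log2 CPM and a WT mean of 0.62 ± 1.40 (SD, 3 libraries each). It rose by 2.84 in number 4. Another surface carbonic anhydrase gene, Car12, fell by 0.95 in number 4 and was 0.11 higher in KO, whereas Car9 rose and was lower in KO. Ndrg3 rose by 0.27 in number 4, in the direction of Ndrg1, and was 0.08 higher in KO.

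The genes listed with P4ha1 and Ero1l were partners in the endoplasmic reticulum and the relatives P4ha2, P4ha3 and Ero1lb. On average 9 of 9 tested members were lower in KO, against 52.9% of all genes, with a median of -0.14. In 3 of 3 pairs 6 were lower, against 17%, and 0 passed in limma's test. P4ha2 was also among the other HIF targets above. In number 4, 6 of the 9 fell and 0 rose past the threshold, against 33.8% and 31.8% of all genes. P4ha2 (limma adjusted p = 2.97e-05), Gpx8 (-0.92), Pdia6 (-0.60), Prdx4 (-0.58) and P4hb (-0.22), the shared subunit of prolyl hydroxylase, fell with P4ha1. Ero1l rose there, and its relative Ero1lb was at -0.10 (SE 0.15).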

How the data were processed

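RNA sequencing of 3 KO and 3 WT libraries was analysed. The submitters' processing notes name build GRCm38 and, as the authors' tools, edgeR, Subread 1.6.4 with featureCounts, STAR 2.7.3a and Trimmomatic 0.39. The authors deposited log2 CPM values, whose normalization, strand setting and annotation release the sources used here do not give, so reads of overlapping or antisense genes cannot be told apart. Subtracting the lowest linear value left whole multiples of 1 step per library for 100% of values (tolerance 0.01), which gave the reads. Columns are numbered 1, 2 and 4, whereas the titles run over pools 1 to 3, so columns 4 could be tied to a genotype but not to a pool.

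limma 3.58.1 in R 4.3.3 was fitted with a trended variance to the 11269 genes that reached 0 log2 CPM in 3 or more of the 6 libraries (183 dropped). All 10 genes passed. Tests were two-sided, with Benjamini-Hochberg adjustment over all genes and a threshold of 0.05, and the scripts were tested on simulated data. The genes, lists and alternatives were chosen with earlier results of these data known. Besides the 10 genes and Myo1e, any regulator or partner gene could be named, the 3 lowest and 3 highest of the 2 target lists, and the 3 genes nearest to Bnip3, Pdk1 and Adm. A gene that this rule names is not reported here.

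Deviations from the genotype mean of same-numbered KO and WT libraries correlated at r = 0.744, 0.784 and 0.921 across genes. Against these, r was 0.687 for KO 1 with WT 2 and 0.617 for KO 2 with WT 1. Values were below 0 for number 4 with the others, which follows largely from centring on the genotype mean and does not bear on pairing. The numbers were taken to pair the libraries from the values of numbers 1 and 2, which also carry the shift of number 4, and not from a label. Gene lengths are GENCODE M21 exon unions. Alternatives covered filter, pseudocount, scaling, variance, voom, the replicate block and each library left out.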

Additional observations from a re-analysis of the deposited data

How the results depend on the processing

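The count of genes called for KO against WT was 0 under each alternative except with the replicate block, where it was 1, on the log2 values and with voom on the recovered reads alike. The voom fit with the block and the single pairs were added after seeing the data. The number 4 comparison called 7398 genes, and 5592 to 7495 with 1 library left out. The interaction called 0 genes, and 0 to 269 with 1 library left out. It could not be fitted without KO 4 or WT 4. Of the 10 genes, 9 passed for number 4, and 7 or more did under each alternative. The median difference of the 10 genes between KO and WT was -0.27, -0.44 to -0.18 with 1 library left out, -0.48 in the pair numbered 2 alone and -0.34 without the pair numbered 4. The count lower in KO was 9 of 10 under the other settings, and 8, 7 and 6 of 10 without KO 1, KO 2 and WT 4, where the numbers are in unequal shares of the genotypes. Without the pair numbered 4, 7 genes were lower in both remaining pairs. For number 4, no gene of the 10 changed direction under any alternative. The replicate block changed no call for KO against WT among the 10 genes or the other genes named. Adm, at 17 to 49 reads, is limited by depth.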
